A study of Mus musculus with 9 samples.

Results

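T-cell receptor segments are the short V and J gene pieces from which a developing T cell assembles its antigen receptor. The set described here is 129 genes of 30145 measured: every gene whose symbol on the array starts with Trav, Traj, Trbv, Trbj, Trdv or Trgv followed by a number, taken from probe sets with 1 gene symbol. By family there were 85 Trav genes (variable segments of the alpha chain), 18 Traj genes (joining segments of the alpha chain), 21 Trbv genes (variable segments of the beta chain) and 5 Trdv genes (variable segments of the delta chain). No Trbj or Trgv symbol was found on such a probe set. The RefSeq gene table for assembly GRCm38.p6 matched all 129 symbols and classed 105 as V segments, 6 as V segment pseudogenes, 10 as J segments and 8 as J segment pseudogenes.

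The hearts came from nude mice, labelled only as immunodeficient, with no allele, strain, sex or age given in the labels. All of them had a permanent ligation of the left anterior descending artery. After 3 weeks, animals in chronic heart failure with an ejection fraction under 50% were allotted to a treatment, and whole hearts were collected 6 weeks after it. The control group (2 arrays) received alpha-MEM, a culture medium. The vesicle group (3 arrays) received the extracellular vesicles that 500000 cardiovascular progenitor cells released in 48 hours, and the cell group (3 arrays) received 500000 of those cells, whose species the labels do not give. Injections went into 3 sites of the muscle around the infarct, and the sham heart (1 array) had the needle inserted without an injection. Control array 1, vesicle array 1, cell array 1 and the sham array carry experiment number 9, and the other 5 arrays carry experiment number 1. The titles also hold a VTS number, with no meaning stated: 3 on the arrays of experiment 9, 1 on vesicle array 2, control array 2 and cell array 2, and 2 on vesicle array 3 and cell array 3. The labels do not say that each array is a separate animal, so p-values measure the spread between arrays, which may be technical.

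V, D and J segments are joined at random by the RAG recombinase, mostly in the thymus, and a T cell transcribes the joined gene together with a constant region. The receptor chains reach the cell surface only with the CD3 proteins, which carry the signal into the cell. The delta segments lie inside the alpha locus, and in mice much of the V alpha region is duplicated, which gives near-copies marked d and n in the symbol. Nude mice lack functional FOXN1, the factor that builds the thymic epithelium, and so form no proper thymus; a small number of T cells can mature elsewhere. A segment that has not been joined can still give sterile transcripts in T-cell precursors, and an array does not tell those from a finished receptor.

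Of the heart muscle markers, 5 of 5 measured genes lay above the negative controls on all 9 arrays, among them Tnnt2 and Tnni3 (troponins), Ryr2 (the calcium release channel) and Myl2 (a myosin light chain). A gene was counted as above the negative controls on an array where its deposited log2 value was above that of 95% of the 10553 negative controls there. That limit, their 95th percentile, lay between 7.18 and 7.28 on the 9 arrays, and the median of the negative controls lay between 4.44 and 4.62. The negative controls are not matched to the segments in base composition, and background probe sets averaged from 2.02 at 3 GC bases to 7.64 at 23 GC bases, so a probe's own composition can move it against this limit, and its part in the counts below was not tested. In whole hearts, fewer cells of a type and less RNA per cell cannot be told apart.

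Most segments were at the level of the negative controls. On all 9 arrays, 3 of the 129 segments exceeded the 95th percentile, against 20.1% of all genes, and 8 did so on at least 1 array, against 23.9% of all genes. The other 121 were above it on no array. Of the 129, 61 lay above the median of the negative controls on all 9 arrays, against 65.8% of all genes, and 57 lay below that median on all 9. The median segment stood at the 52.5th percentile of the negative controls. Between 4 and 8 segments exceeded the 95th percentile on any 1 array: 6 and 8 on the control arrays, 6, 8 and 7 on the vesicle arrays, 4, 7 and 4 on the cell arrays, and 7 on the sham array. These counts overlapped between the groups, and no count by itself separated the treated hearts from the controls.

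**Figure D1:**
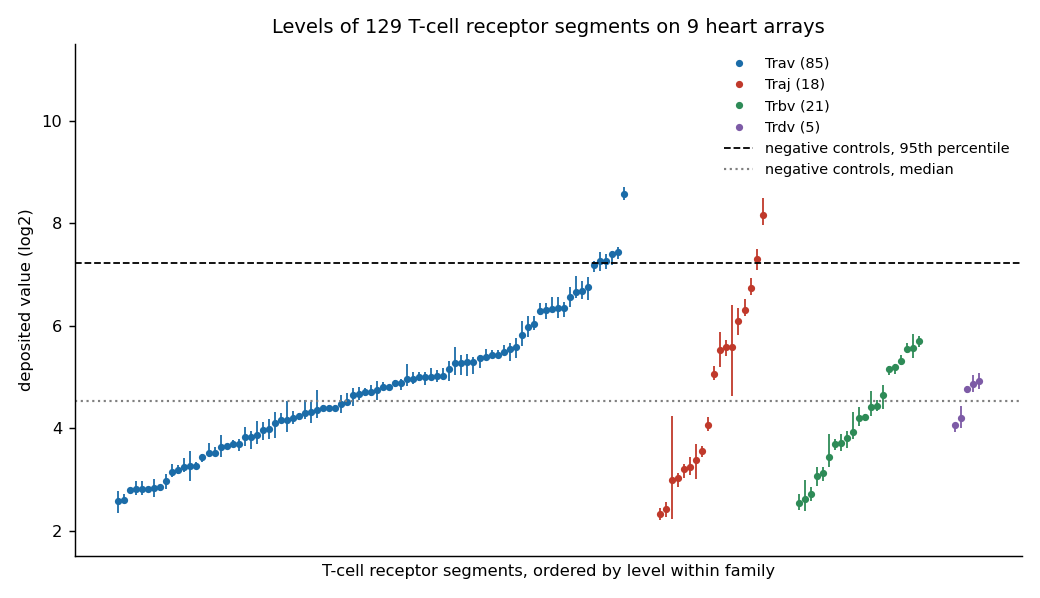
Deposited log2 values of the 129 segments by family; each point is the mean over the 9 arrays, each vertical line runs from the lowest to the highest array, and the horizontal lines are the means over the arrays of the negative controls' 95th percentile and median. Nearly all points lie under the dashed line: 3 segments exceeded it on all 9 arrays and 121 on none.

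The 3 segments above the negative controls on every array were Trav13n-4, Traj25 and Trav1. Trav13n-4, a V alpha segment of the duplicated n block, measured 8.45 and 8.65 on the control arrays, 8.63, 8.72 and 8.56 on the vesicle arrays, 8.49, 8.59 and 8.46 on the cell arrays and 8.58 on the sham array. On every array it exceeded at least 98.6% of the negative controls, and its values overlapped across all groups. Traj25, a J alpha segment, measured 8.16 and 8.50 on the control arrays, 7.97, 8.02 and 8.19 on the vesicle arrays, 8.03, 8.25 and 8.18 on the cell arrays and 8.09 on the sham array. Its highest value was that of control array 2, and the other control array lay within the range of the treated ones. Trav1, the V alpha segment farthest from the J cluster, measured 7.46 and 7.50 on the control arrays, 7.39, 7.35 and 7.47 on the vesicle arrays, 7.53, 7.47 and 7.30 on the cell arrays and 7.46 on the sham array. It lay at the 95.6th to 96.4th percentile, close to the limit, with no order among the groups. None of the 129 segments reached the 99th percentile of the negative controls on any array.

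A further 5 segments crossed the limit on some arrays. Trav11d did so on 8 arrays, with 7.39 and 7.41 on the control arrays, 7.41, 7.46 and 7.41 on the vesicle arrays, 7.41, 7.46 and 7.18 on the cell arrays and 7.41 on the sham array. Only cell array 3 was low, and several arrays carried the very same value. Its copy Trav11n crossed the limit on 3 arrays, with values from 7.06 on cell array 3 to 7.27 on control array 2. Trav11 is the V alpha segment used by the invariant receptor of mouse natural killer T cells, where it is joined to Traj18.

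Trav13d-3 and Trav13n-3 crossed the limit on 7 and 5 arrays and are near-copies of each other, so they are not independent readings. Trav13d-3 measured 7.26 and 7.30 on the control arrays, 7.40, 7.32 and 7.25 on the vesicle arrays, 7.16, 7.26 and 7.10 on the cell arrays and 7.26 on the sham array. Trav13n-3 measured 7.26 and 7.34, then 7.45, 7.39 and 7.21, then 7.07, 7.26 and 7.08, and 7.26 on the same arrays in that order. Cell arrays 1 and 3 were the lowest for both. Traj55, which RefSeq classes as a J segment pseudogene, crossed the limit on 7 arrays, with 7.30 and 7.51 on the control arrays, 7.08, 7.30 and 7.33 on the vesicle arrays, 7.15, 7.40 and 7.31 on the cell arrays and 7.30 on the sham array. A pseudogene segment cannot give a working receptor chain.

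**Figure D2:**
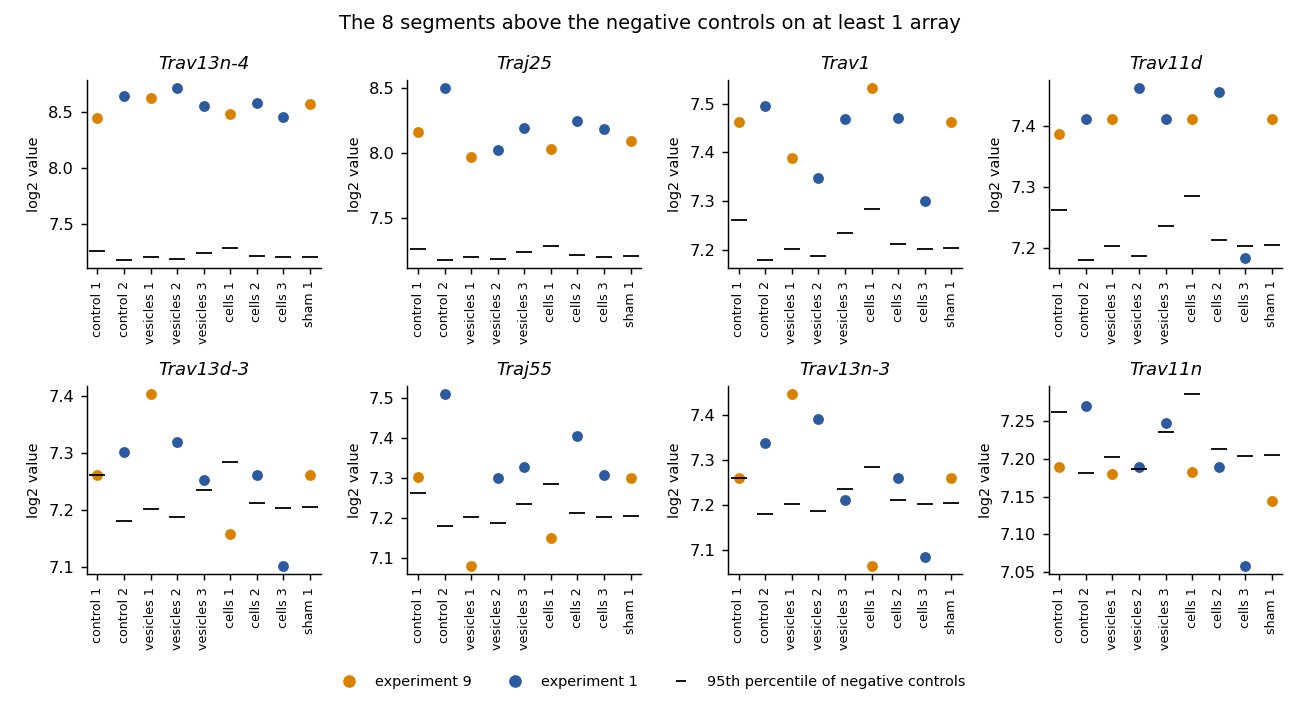
Deposited log2 value (vertical axis) on each of the 9 arrays for the 8 segments above the negative controls on at least 1 array, coloured by experiment; the black dash is the 95th percentile of that array's negative controls. Trav13n-4, Traj25 and Trav1 lie above the dash on all 9 arrays, while the points of Trav13d-3, Trav13n-3, Trav11n and Traj55 lie on both sides of it.

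Positions against the negative controls varied between the V alpha subgroups. All 11 measured Trav13 genes lay above the median of the negative controls on all 9 arrays, 3 of them exceeded the 95th percentile on at least 1 array and 1 on all 9. Their median position was the 89.5th percentile of the negative controls, where that of all Trav genes was the 53.9th. The Trav13 genes resemble each other in sequence, and a probe can bind transcripts of a near-copy, so the 11 values are not 11 separate readings. The Trav4 subgroup had 6 of 7 genes above the median of the negative controls on all 9 arrays, Trav12 had 4 of 5 and Trav9 had 6 of 10. In the opposite direction, all 4 Trav5 genes, all 3 Trav10 genes and 9 of 11 Trav7 genes lay below that median on all 9 arrays. These subgroups were singled out after their values were seen, and no test was made of them.

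The duplicated blocks gave 20 pairs of a d and an n copy. In 3 pairs, Trav14d-2 with Trav14n-2, Trav7d-5 with Trav7n-5 and Trav5d-3 with Trav5n-3, the deposited values were identical on all 9 arrays, so the 129 symbols carry 126 distinct rows of values. In 6 pairs, these 3 included, the copies differed by no more than 0.1 on any array. The widest pair was Trav13d-4 with Trav13n-4, which differed by up to 2.37, and only the n copy exceeded the negative controls.

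Among the J alpha segments, the members other than Traj25 and Traj55 exceeded the 95th percentile on no array, and 9 of the 18 lay below the median of the negative controls on all 9. The 21 beta segments included none above the 95th percentile on any array, and 12 lay below the median on all 9. Trbv2 had the highest beta mean, with 5.75 and 5.81 on the control arrays, 5.69, 5.59 and 5.78 on the vesicle arrays, 5.62, 5.73 and 5.61 on the cell arrays and 5.67 on the sham array, which is the 72.8th to 78.6th percentile of the negative controls. A beta chain is normally joined before an alpha chain in T-cell development. Of the 5 delta segments, Trdv2-2, Trdv2-1 and Trdv5 lay above the median of the negative controls on all 9 arrays and Trdv4 and Trdv1 on none, with means over the 9 arrays from 4.07 to 4.92. Gamma chain genes appeared under older Tcrg symbols, a list picked after values were seen: 0 of 6 exceeded the 95th percentile on any array, and Tcrg-V6, the V segment of one early gamma-delta lineage, measured 4.70 to 4.88. A further 23 probe sets named several genes at once with a segment among them, 9 of them with no member of the set; none exceeded the 95th percentile, and their highest value was 6.82.

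The genes that a T cell needs beside the segments were also at the level of the negative controls. All 4 genes of the CD3 complex stayed under this limit on all 9 arrays. Cd3e, the CD3 epsilon chain, measured 4.87 and 5.31 on the control arrays, 4.96, 4.96 and 4.93 on the vesicle arrays, 4.90, 4.96 and 4.96 on the cell arrays and 4.96 on the sham array. Cd3d (delta chain) measured 4.80 to 5.04, Cd3g (gamma chain) 4.34 to 4.68 and Cd247 (zeta chain) 5.13 to 5.26, each highest on control array 2. None of 9 measured genes of receptor signalling, such as Zap70, the kinase that docks on the CD3 chains, exceeded the limit on any array, nor did any of 12 genes of T-cell identity, such as Cd8a (4.76 to 5.23) and Bcl11b, a factor that fixes T-cell fate. The same held for 8 genes of recombination and the thymus, such as Dntt, which adds random bases at the joints, and for 7 B-cell genes. Of 15 genes of natural killer and gamma-delta cells, Zbtb16 exceeded the limit on all 9 arrays and Sox13 on 5; both also act outside lymphocytes. No alpha, beta or delta constant region gene stood on a probe set with 1 symbol. Tcrg-C3, a gamma constant region gene, measured 2.95 to 3.59, and Trgj3, a gamma joining segment, measured 2.41 to 2.56. Of 6 macrophage genes, Csf1r (7.34 to 7.72) and Lyz2 (9.21 to 10.37) exceeded the limit on all 9 arrays and C1qa on 1. The others, Adgre1 (5.77 to 6.39), Cd68 (6.49 to 7.02) and Cd14 (5.84 to 6.48), exceeded it on no array.

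Treatment was then compared over the 8 arrays of the injected groups, with the experiment as a block. In vesicle against control hearts no gene passed the adjusted threshold of 0.05 in limma, so 0 of 129 segments and 0% of all genes were called, while 1942 genes, or 6.44%, had an unadjusted p under 0.05. Of the segments, 89 had a lower fitted value in the vesicle group and 40 a higher one, where 60.4% of all genes were lower. The median segment difference was −0.050 on the log2 scale, against −0.012 over all genes. Unadjusted p-values under 0.05 were found for 11 segments in the lower direction, against 4.53% of all genes, and for 0 in the higher direction, against 1.91%. Groups did not overlap for 15 segments with vesicle arrays below control arrays, against 7.17% of all genes, and for 4 above, against 3.72%. Since 121 segments were not above background on any array, these are differences of deposited values and not fold changes of RNA.

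Traj55 had the lowest unadjusted p of the segments, with a difference of −0.20 ± 0.033 (fitted difference ± SE, 3 vesicle and 2 control arrays) and an adjusted p of 0.648. Its arrays overlapped between the groups, since vesicle array 3 lay above control array 1. Traj25 differed by −0.30 ± 0.069 and Traj57 by −0.14 ± 0.036, each with an adjusted p of 0.675. Trbv20, a V beta segment near the bottom of the background range, measured 2.69 and 3.0 on the control arrays, 2.55, 2.60 and 2.61 on the vesicle arrays, 2.59, 2.64 and 2.60 on the cell arrays and 2.38 on the sham array. Both control arrays were above all treated arrays, and the difference of vesicles from control was −0.28 ± 0.067 (adjusted p = 0.675). Trav6n-6, a V alpha segment, measured 4.13 and 4.04 on the control arrays, 3.79, 3.85 and 3.92 on the vesicle arrays, 3.80, 3.78 and 3.88 on the cell arrays and 3.70 on the sham array. Again the control arrays were above all others, with a difference of −0.24 ± 0.056 (adjusted p = 0.675). In the higher direction the lowest p-values belonged to Trav12n-1 (0.15 ± 0.072), Traj1 (0.83 ± 0.45), Trav18 (0.098 ± 0.055) and the identical pair Trav14d-2 and Trav14n-2 (0.061 ± 0.039 for both).

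In cell against control hearts no gene passed the threshold either, so 0 of 129 segments and 0% of all genes were called, while 2029 genes, or 6.73%, had an unadjusted p under 0.05. Here 102 segments had a lower fitted value in the cell group and 27 a higher one, where 55.8% of all genes were lower, and the median segment difference was −0.052, against −0.0064 over all genes. Unadjusted p-values under 0.05 were found for 14 segments in the lower direction, against 5.05% of all genes, and for 0 in the higher direction, against 1.68%. Groups did not overlap for 18 segments with cell arrays below control arrays, against 5.57% of all genes, and for 2 above, against 3.20%. The vesicle and cell comparisons use the same 2 control arrays, so their directions are not separate observations. The lowest p-values belonged to Trav6n-6 (−0.27 ± 0.056), Traj55 (−0.15 ± 0.033), Trbv12-2 (−0.16 ± 0.035), Trav6-4 (−0.16 ± 0.036) and Trbv20 (−0.26 ± 0.067), all with an adjusted p of 0.682. In the higher direction they belonged to Trbv19 (0.22 ± 0.10), Trbv26 (0.13 ± 0.072), Trav18 (0.099 ± 0.055), the V pseudogene Trbv29 (0.14 ± 0.092) and Trav8-1 (0.16 ± 0.13). Cd3d, measured beside them, differed by −0.12 ± 0.026 with an adjusted p of 0.682.

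**Figure D3:**
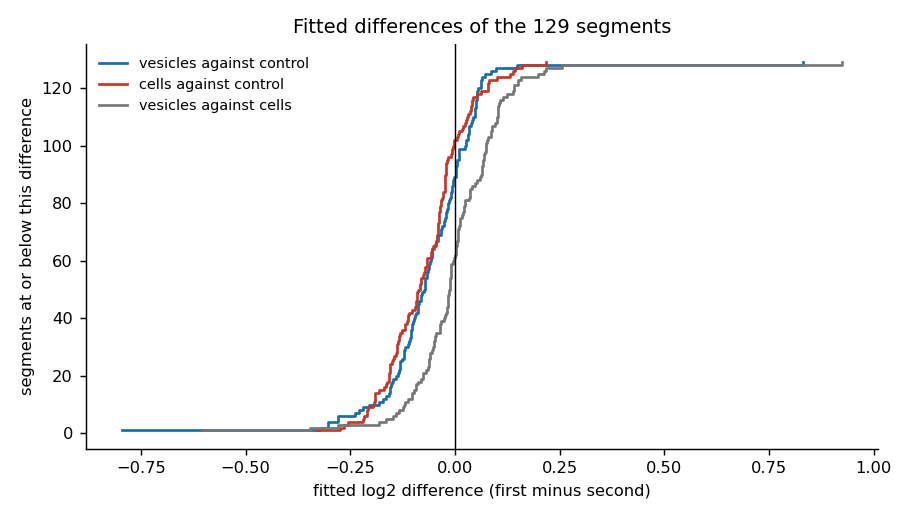
Running count of the 129 segments (vertical axis) at or below each fitted log2 difference (horizontal axis) for the 3 treatment comparisons. The curves against control pass 0 at 89 segments for vesicles and at 102 for cells, and the curve of vesicles against cells passes it at 61.

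The values against control depended on control array 2. Without that array, 66 of 129 segments (51.2%) were lower in the vesicle group, with a median of −0.0093, where 54.6% of all genes were lower. In the cell group 83 (64.3%) were lower, with a median of −0.023, where 52.9% of all genes were. Within experiment 9, where control array 1 is the only control, the median segment differed by −0.0034 on vesicle array 1 and by −0.0077 on cell array 1. Within experiment 1, where control array 2 is the only control, the medians were −0.075 and −0.076 on vesicle arrays 2 and 3 and −0.072 and −0.094 on cell arrays 2 and 3. The sham array, also of experiment 9, had a median of 0.0 against control array 1, with 47 segments lower and 63 higher. With each array centred on its median over all genes, 76 segments (58.9%) were lower in the vesicle group, where 43.2% of all genes were, and 82 (63.6%) in the cell group, where 34.5% of all genes were. Without control array 1, on the other hand, control array 2 was the only control left. Trbv20 and Trbv16 were picked from that fit by their adjusted p, and genes outside the set passed the threshold in it as well. Trbv20 then differed by −0.40 for vesicles and −0.37 for cells, and Trbv16 by −0.23 and −0.24. Trbv16 measured 4.05 on control array 1, 4.42 on control array 2 and 4.17 to 4.20 on the 6 treated arrays, so the treated arrays lay between the control arrays.

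Control array 2 held the single highest value of 50 of the 129 segments, or 38.8%, and the lowest of 2. It also held the highest value of 24.5% of all genes and of 30.6% of the 22928 genes above the negative controls on no array. By family these were 28 of 85 Trav, 8 of 18 Traj, 11 of 21 Trbv and 3 of 5 Trdv segments. The median deviation of a segment from its mean over the arrays was 0.075 on control array 2 and between −0.022 and 0.0019 on the other 8, while for the genes above the negative controls on no array it was 0.014 on control array 2. The pattern was noticed in the values and has no test. Centring the arrays on their medians left 37 segments highest on control array 2 and quantile normalization left 41. The shares of all genes under these scalings are not given here, so the counts cannot be set against them. The median of the negative controls was lowest on this array (4.44), and centring on it gave 86 segments, but also 58.0% of all genes.

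Many genes other than the segments were also highest on this array. In the lymphocyte lists these were 4 of 4 CD3 genes, 8 of 9 signalling genes, 7 of 12 T-cell identity genes and 6 of 7 B-cell genes. So were 9 of 15 natural killer and gamma-delta genes. In the recombination and thymus list 5 of 8 were, among them Foxn1, which is a gene of the thymic epithelium and not of lymphocytes. Of the gamma chain genes under older symbols 2 of 6 were highest there, Trgj3 was not, and of the macrophage genes 2 of 6 were. The mean level of the CD3 genes was 5.07 on control array 2 and 4.82 to 4.87 on the others. The mean of the macrophage genes was 7.46 on control array 2 and ranged from 6.92 to 7.40 elsewhere, and no heart muscle gene was highest there. The part of these genes, of the array and of the background in the segments' values was not tested.

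**Figure D4:**
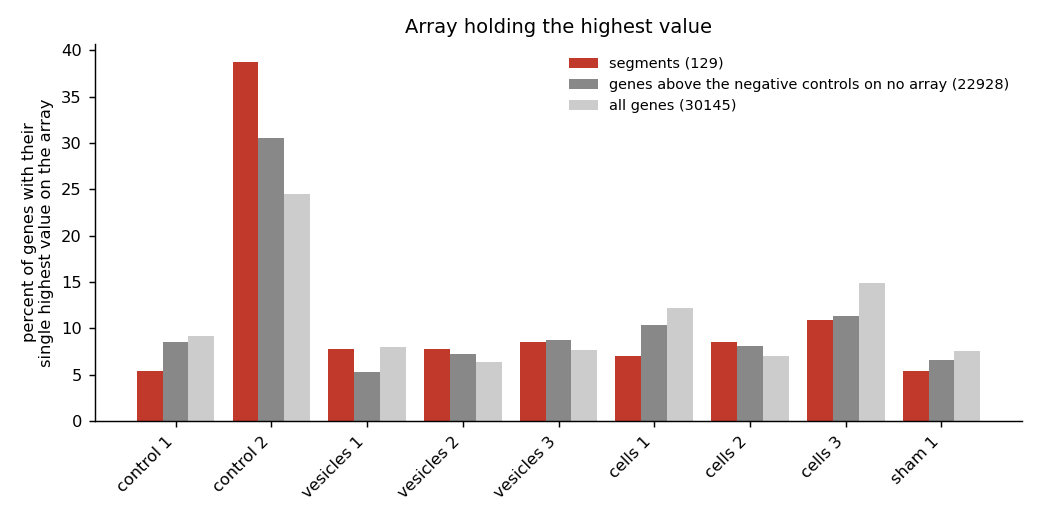
Percent of genes (vertical axis, from 0) whose single highest value was on each array, for the 129 segments, for the 22928 genes above the negative controls on no array and for all 30145 genes. Control array 2 has the tallest bars in all 3 sets, at 38.8%, 30.6% and 24.5%.

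Vesicle and cell hearts were also compared with each other in the same fit over 8 arrays. The control arrays therefore still enter the spread behind its SE and p-values. No gene was called, so 0 of 129 segments and 0% of all genes passed, while 1309 genes, or 4.34%, had an unadjusted p under 0.05. Of the segments, 68 were higher with vesicles and 61 lower, where 52% of all genes were lower, and the median difference was 0.0037. Unadjusted p-values under 0.05 were found for 8 segments higher with vesicles, against 1.75% of all genes, and for 3 lower, against 2.59%. Groups did not overlap for 5 higher segments, against 1.85%, and for 3 lower ones, against 2.56%. The lowest p-values of the higher segments belonged to Trbv12-2 (0.14 ± 0.031), Trav16n (0.16 ± 0.038), Trav3d-3 (0.22 ± 0.056), Trbv13-1 (0.26 ± 0.081) and Trav14d-2 (0.10 ± 0.035). Trav14n-2 has the same values as Trav14d-2 on every array, so these values count again among the 8. Trbv13-1 measured 4.75, 4.67 and 4.84 on the vesicle arrays and 4.50, 4.62 and 4.37 on the cell arrays, so the groups were apart, and the control arrays at 4.69 and 4.82 fell with the vesicle arrays. Of the lower segments they belonged to Trbv19 (−0.28 ± 0.090), Traj14 (−0.60 ± 0.22), Traj2 (−0.35 ± 0.13), Trav7d-2 (−0.12 ± 0.049) and Trav2 (−0.059 ± 0.024). Trbv19 was highest on cell array 1 (3.88) and lay at 3.24 to 3.54 on the other 8. The smallest adjusted p among the segments was 0.920.

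The experiment itself was compared in the same fit, with treatment held fixed. No gene was called, so 0 of 129 segments and 0% of all genes passed, while 3846 genes, or 12.8%, had an unadjusted p under 0.05. In experiment 1, 98 segments were higher than in experiment 9 and 31 lower, where 41.5% of all genes were lower, with a median of 0.042 against 0.010 over all genes. Unadjusted p-values under 0.05 were found for 9 higher segments, against 6.56% of all genes, and for 0 lower ones, against 6.20%. Traj55 had an adjusted p of 0.212 in limma, with a difference of 0.21 ± 0.026. No gene of the 30145 had a smaller adjusted p, but the value was tied: the heart muscle gene Myl2 had the same one. Traj14 (0.75 ± 0.19), Traj25 (0.21 ± 0.056), Trav6-4 (0.097 ± 0.029) and Trav12n-2 (0.21 ± 0.065) followed. Among the 8 arrays fitted, those of the 2 experiments did not overlap for Trav12n-2 and Trav15n-2, or 2 higher segments against 2.74% of all genes, and for 0 lower ones against 4.18%; the sham array, of experiment 9, lay within the experiment 1 range for Trav12n-2 (5.59). With arrays centred on their medians, 60 of 129 segments (46.5%) were lower in experiment 1, where 66.3% of all genes were. The split also depended on the control arrays. Without control array 2, 45 segments (34.9%) were lower, where 46.0% of all genes were. Leaving out control array 1 in its place also gave 45, where 45.6% of all genes were lower.

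The segments differed in how much they varied across arrays. The median range from the lowest to the highest array was 0.28, against 0.20 over all genes, and 14 segments had a range over 0.5, of which 6 were Traj and 8 were not. The same value on 3 or more arrays was found for 54 segments (41.9%), against 61.1% of all genes, a property of the deposited table that narrows the spread. Traj14 and Traj1, both J segment pseudogenes in RefSeq, were the 2 with a range over 1. Traj14 measured 5.50 and 6.41 on the control arrays, 4.63, 5.27 and 5.94 on the vesicle arrays, 5.61, 5.93 and 6.11 on the cell arrays and 4.89 on the sham array. It ran from the 52.3rd to the 88.2nd percentile of the negative controls, and the vesicle arrays alone covered most of that span. Its difference of vesicles from control was −0.80 ± 0.24 and did not pass the adjusted threshold. Traj1 measured 2.90 and 2.39 on the control arrays, 3.33, 4.24 and 2.94 on the vesicle arrays, 2.22, 2.94 and 2.57 on the cell arrays and 3.40 on the sham array. It never reached the median of the negative controls, and vesicle array 2 was the single high value. The next widest were Traj2, Traj38, Trbv19, Trbv20, Trav4d-3 and Trav16d-dv11, with ranges of 0.59 to 0.68.

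**Figure D5:**
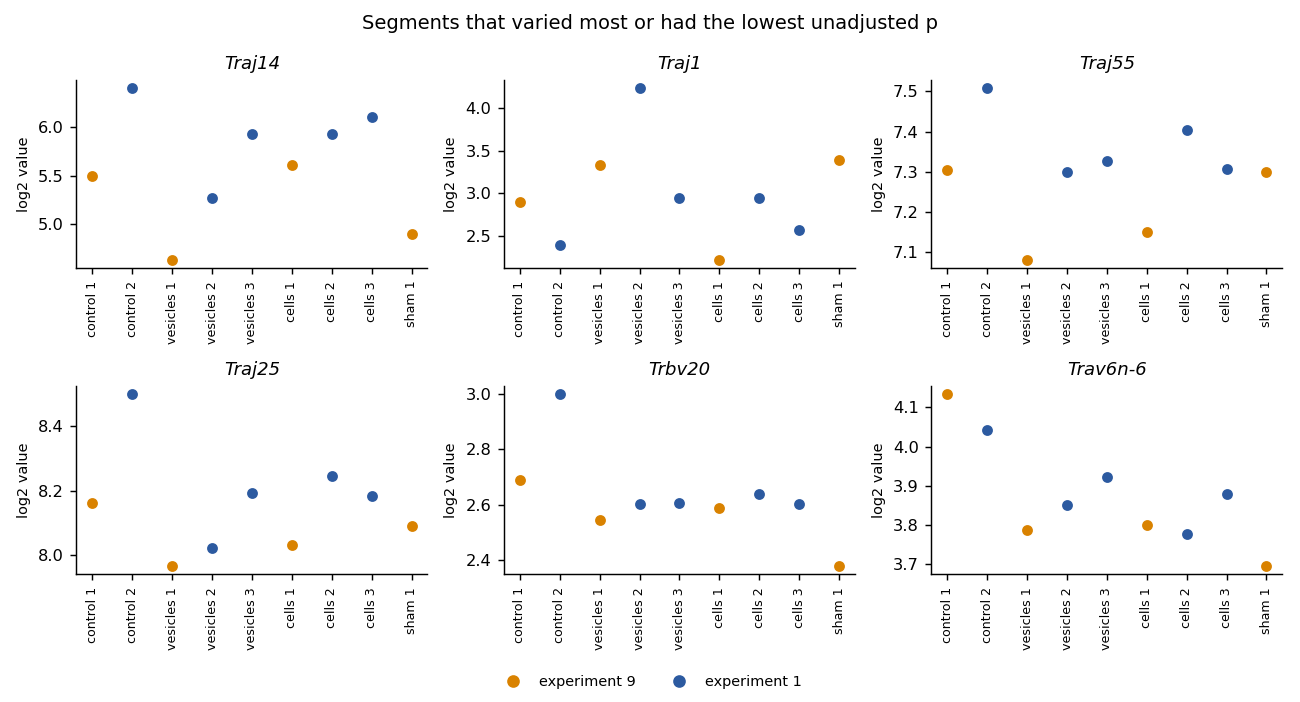
Deposited log2 value (vertical axis, scaled for each segment) on each of the 9 arrays for the segments with the widest range or with the lowest unadjusted p, coloured by experiment. Traj14 runs from 4.63 to 6.41 and Traj1 from 2.22 to 4.24, while both control arrays of Trbv20 and of Trav6n-6 lie above the other 7.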

How the data were processed

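RNA from whole frozen hearts was labelled with biotin for Affymetrix arrays, per the labels' protocols. The deposited values, 1 for each of 80202 probe sets and array, were read as log2 from their range; for log base, background correction and normalization the sources used here give nothing, though the submitters' processing notes list Partek. Values were used as they stand. Arrays have no read depth, and their number limits the precision.

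Of 32750 named probe sets, 30604 had 1 symbol; 2146 with several were set aside. The probe set with the highest mean was kept for the 352 genes with more than 1. Group differences came from limma 3.58.1 (lmFit, eBayes; R 4.3.3) on 8 arrays, with a mean for each treatment plus a fixed term for experiment, two-sided, with Benjamini-Hochberg adjustment over 30145 genes; the sham array was left out. The fit was tested on simulated data with planted shifts larger than any segment difference here, so its power for small differences was not tested. Replicates were numbered by accession and are not paired.

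The members, the gene lists and the tests were chosen with earlier results of these data known. Named segments are those above the negative controls on any array, per comparison and direction the 5 with the lowest unadjusted p, any called, and the 8 widest in range; in each marker list, the CD3 and constant region genes and up to 4 with the lowest p. Other genes were named after their values were seen. Alternatives were scaling, filters on dim genes, the block, probe set choice, symbol updates, the sham array, detection limits and leaving out each array.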

Additional observations from a re-analysis of the deposited data

How the results depend on the processing

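Segments above the negative controls on all 9 arrays numbered 8 at their 90th percentile, 0 at the 99th and 61 at the median. On at least 1 array they numbered 14, 0 and 72, and leaving out 1 array gave 3 to 4 and 8 to 8. Of all genes, 65.8% lay above the median on all 9 arrays. The other shares of all genes are not given here, so those counts cannot be set against them. Genes called ranged from 0 to 825 for vesicles against control and from 0 to 920 for cells against control when 1 array was left out, the highest counts without control array 1, which leaves 1 control whose spread is taken from the other arms; the cause was not tested. They were 0 to 0 for vesicles against cells and for the experiment, and pooling the sham array with the controls gave 1 for cells against control. The median segment difference ranged over left-out arrays from −0.078 to −0.0093 (vesicles against control), −0.089 to −0.023 (cells against control), −0.0030 to 0.019 (vesicles against cells) and 0.022 to 0.054 (experiment 1 against 9). Centring arrays on their medians gave −0.029, −0.023 and, for the experiment, 0.0089, and quantile normalization gave 0.015 for the experiment. Keeping the 25 segments over the 50th percentile of all genes gave −0.072, −0.14, 0.033 and 0.071, and keeping the 8 above the negative controls on an array gave 0.0030, −0.096, 0.070 and 0.011, in the same order of comparisons; fewer segments enter both. Centring on the negative controls' median, added after seeing the data, put 86 segments highest on control array 2. Of values for single segments, Trav9-1 turned to 0.0029 for the experiment without vesicle array 1. Trbv20 and Trbv16 changed side of the threshold in the fit without control array 1, which leaves 1 control. Among the values followed, 630 kept direction and side. A fit with the VTS number of the titles as a block in place of the experiment was added after seeing the data. In it 0 genes were called in each treatment comparison, with 1665, 1494 and 1444 at an unadjusted p under 0.05 (in the order above). The segment medians were −0.049, −0.050 and 0.0037. Of the 129 segments, 84, 93 and 61 were lower, where 60.5%, 56.0% and 52.0% of all genes were. Replicate numbers follow accession order, so no fit used them for pairing.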
